A study of Danio rerio with 2 samples.

Results

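The Wnt family was taken here as all genes with a transcript whose best protein match in the deposited tables named Wnt, wingless, frizzled or dickkopf. This rule gave 50 of the 22017 genes with a read, represented by 53 of 27808 transcripts. Of the 50, 19 were Wnt ligands, 16 were Frizzled gene models and 12 were secreted inhibitors. The other 3 were WISP genes of the CCN family, which the rule took in because their name recalls their induction by WNT1.

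Wnt proteins are secreted, lipid-modified ligands that bind Frizzled receptors on neighboring cells. Frizzled receptors pass the signal with a co-receptor either to β-catenin and its TCF partners in the nucleus or to the planar polarity pathway, which orients cells and their movements. Secreted Frizzled-related proteins and Wnt inhibitory factor bind the ligands themselves, whereas Dickkopf proteins block the co-receptors. In the mouse and zebrafish brain, Wnt7 ligands made by neural cells act on the endothelium through a receptor complex.

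The genes were measured by RNA sequencing of GFP+ cells and GFP- cells sorted from dissociated Tg(fli1a:EGFP)y1 zebrafish embryos at 22 to 24 hours post fertilization (hpf), with 1 library per group. All embryos carried the transgene, in which the promoter of fli1a drives EGFP, and no other treatment or allele is given. The labels call the GFP+ cells endothelial and the GFP- cells non-endothelial, but fli1a is also active outside the endothelium, in early blood and pharyngeal arch cells. The GFP+ library held 4441335 counted reads and the GFP- library 4105672.

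Markers were compared with these labels. Of the 16 vascular marker genes that were deep enough to test, 15 were higher in GFP+ cells and efnb2a was not called, and kdrl, the VEGF receptor gene, had 2640 reads there against 71 in GFP- cells. The endothelial cadherin gene cdh5 had 5 reads in GFP+ cells against 0 in GFP- cells and was not tested. Among blood markers, 18 of 20 were higher in GFP+ cells. The vascular markers summed to 3657 RPM (reads of a gene per 1000000 counted reads) in GFP+ cells against 480 RPM in GFP- cells. Most of the GFP- sum came from efnb2a, with 380 RPM in GFP+ cells against 376 RPM in GFP- cells. The blood markers summed to 14000.1 RPM in GFP+ cells against 237 RPM in GFP- cells. Markers of other cell types summed to less in GFP+ cells but were not absent there. Muscle markers summed to 1061 RPM in GFP+ cells against 3483 RPM in GFP- cells, and neural markers to 1220 RPM in GFP+ cells against 2376 RPM in GFP- cells. In the neural sum tubb5, which was not called, had 484 RPM in GFP+ cells against 495 RPM in GFP- cells. Epidermis and notochord markers gave 1890 RPM in GFP+ cells against 4061 RPM in GFP- cells. Most of this came from krt8, which was not called, with 1472 RPM in GFP+ cells against 2327 RPM in GFP- cells. Arch and neural crest markers gave 214 RPM in GFP+ cells against 328 RPM in GFP- cells, and foxd3 alone of the tested genes of these 4 lists had no GFP+ read. The arch and neural crest list was split. Of its 11 tested genes 6 were lower, 4 were not called and 1 was higher, dlx1a, with 69 reads in GFP+ cells against 24 in GFP- cells.

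Reads were summed over the transcripts of each gene. The log2 ratio of RPM, GFP+ over GFP- cells, was computed with 0.5 reads added, for each gene that reached 10 reads in the libraries together. A gene was called higher or lower when this ratio lay above 1 or under -1 and Fisher's exact test (two-sided, on reads) gave an adjusted p under 0.001. With 1 library per group this test compares the libraries and not the conditions, and the differences have no replicate check. Intervals are 95% exact intervals and, like the test, cover counting error only.

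Of the 50 family genes, 38 reached 10 reads and were tested. The log2 ratio was below 0 for 30 of them (78.9%), as it was for 54.7% of all tested genes. By the call, 15 of the 38 (39.5%) were lower, a call that 10.8% of all 15252 tested genes received, and 1 (2.63%) was higher, against 9.99% of all tested genes. The remaining 22 were not called. Scaled to β-actin reads, 9 family genes were lower and 1 was higher, and the calls over all tested genes were 2356 higher and 984 lower, against 1524 and 1651 with the library totals. The median log2 ratio of the 38 genes was -0.99, whereas that of all tested genes was -0.11. In summed RPM the family took 877 RPM of the GFP+ library and 1857 RPM of the GFP- library. Fewer cells of a type and less RNA per cell cannot be told apart in such bulk libraries.

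All 16 calls fell among the 26 family genes that reached 50 reads, in which 15 were lower and 1 was higher. Over all genes of that depth, 14.3% were called lower and 12.6% higher. None of the 12 tested family genes with fewer than 50 reads was called. For 23 of the 38 genes the interval of the log2 ratio lay wholly below 0 and for 1 wholly above 0, against 30.2% and 23.7% of all tested genes. The interval of the other 14 crossed 0. These calls assume that only counting error separates the libraries. With edgeR's exact test and an assumed biological coefficient of variation of 0.4, 0 family genes were called in either direction at an adjusted p under 0.05, and 2.24% of all tested genes were higher and 0.616% lower.

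The level of each gene per length of transcript was read from the deposited RPKM. In GFP+ cells, the Frizzled genes fzd7a, fzd2 and fzd7b stood high in the family with 102, 36.0 and 30.0 RPKM, against 206, 59.5 and 58.8 RPKM in GFP- cells. Of the other genes a short model of frizzled-6 had 35.2 RPKM in GFP+ cells against 24.1 RPKM in GFP- cells. The ligand with the highest level was wnt11, at 17.2 RPKM in GFP+ cells against 45.3 RPKM in GFP- cells. Most ligands were expressed at a lower level than the leading receptors. At least 1 RPKM was reached by 32 family genes in GFP+ cells and by 36 in GFP- cells.

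**Figure D1:**
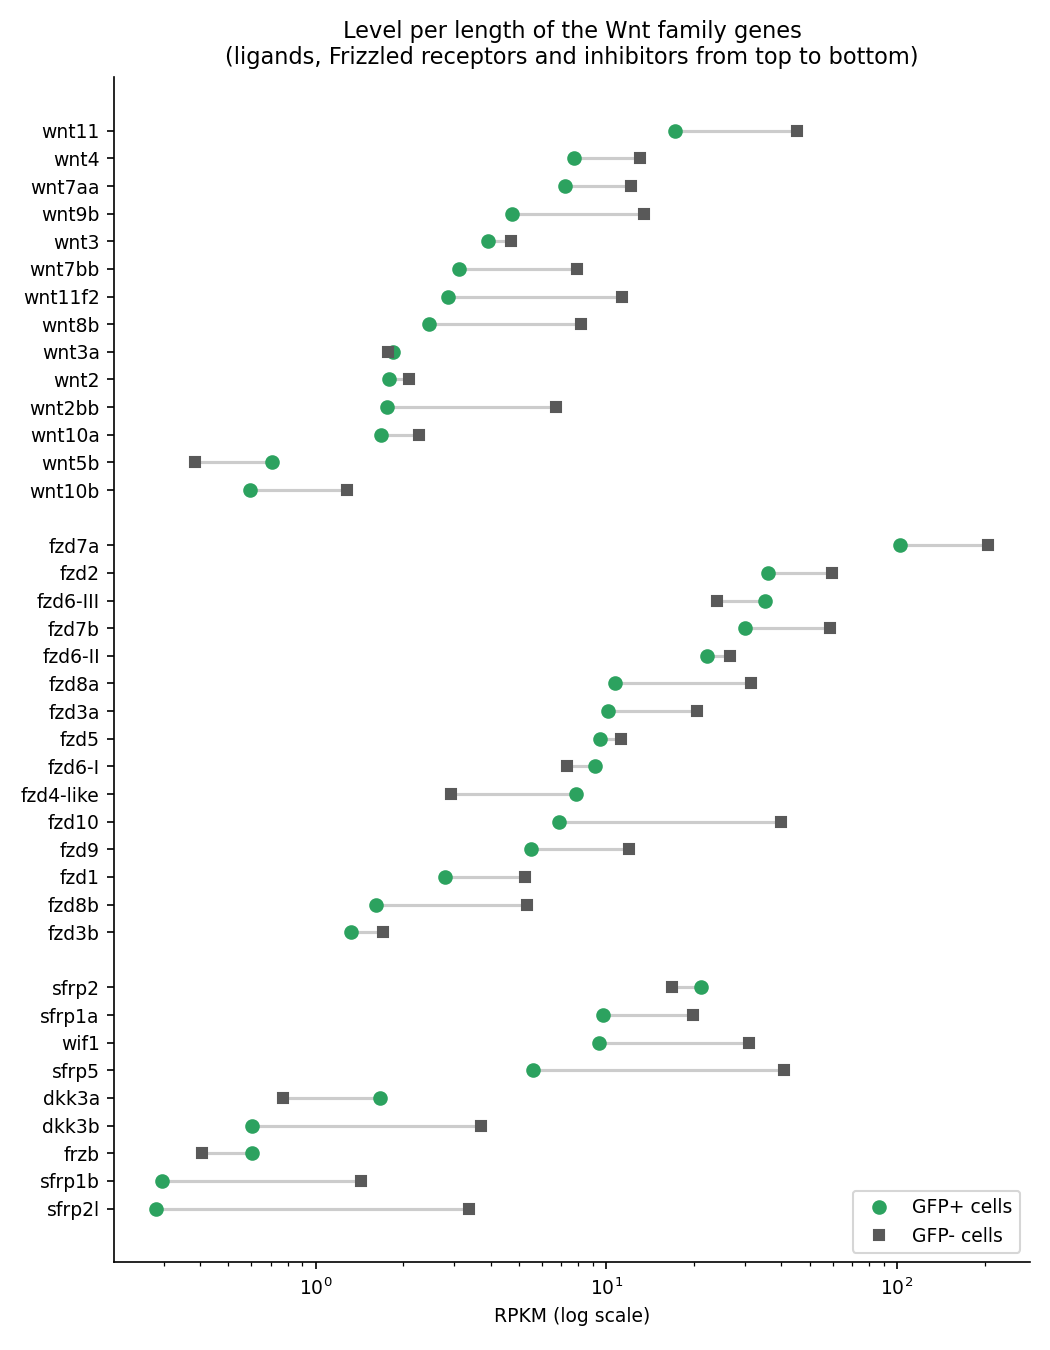
RPKM of the 38 tested Wnt family genes on a log axis, with circles for GFP+ cells and squares for GFP- cells, 1 library each. In most rows the circle lies left of the square, as for fzd7a at 102 RPKM in GFP+ cells against 206 RPKM in GFP- cells. The reverse holds for 8 genes, among them fzd4-like and sfrp2.

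Among the Wnt ligands, 14 of 19 genes were tested, of which 6 were lower in GFP+ cells, 0 were higher and 8 were not called. Their median log2 ratio was -0.89. All ligands together had 618 reads in GFP+ cells against 1349 in GFP- cells or, scaled, 139 RPM in GFP+ cells against 329 RPM in GFP- cells.

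The ligand with the strongest difference was wnt11f2, a Wnt11-type ligand of the β-catenin-independent branch. It had 27 reads in GFP+ cells against 99 in GFP- cells, giving a log2 ratio of -1.97 (95% interval from -2.66 to -1.36). Its relative wnt11, on chromosome 10 of the assembly Zv9 from 33059096 to 33077995, was the most-read ligand, with 166 reads in GFP+ cells against 404 in GFP- cells (log2 ratio -1.39, -1.67 to -1.13). Both Wnt11-type genes were called lower. In zebrafish, a Wnt11-type ligand steers the convergence and extension movements of gastrulation.

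The ligand gene wnt2bb, known in zebrafish for its part in liver specification, had 11 reads in GFP+ cells against 39 in GFP- cells (log2 ratio -1.89, -3.05 to -0.95). The forebrain ligand gene wnt8b had 40 reads in GFP+ cells against 123 in GFP- cells (log2 ratio -1.72, -2.29 to -1.21). For wnt9b the reads were 100 in GFP+ cells against 263 in GFP- cells (log2 ratio -1.50, -1.86 to -1.17), and its span overlaps another gene in the tables, and reads of overlapping genes cannot be told apart. These 3 genes were called lower, but with β-actin scaling the call of wnt2bb was lost at a ratio of -1.54.

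Wnt7 ligands are made by the developing neural tube. The read counts of wnt7bb were 26 in GFP+ cells against 61 in GFP- cells, giving a log2 ratio of -1.33 (-2.07 to -0.66), and it was called lower, a call lost with β-actin scaling at -0.98. Its family member wnt7aa had 92 reads in GFP+ cells against 143 in GFP- cells, a log2 ratio of -0.75 (-1.14 to -0.36) that did not pass the fold threshold. The same held for wnt4, with 77 reads in GFP+ cells against 120 in GFP- cells and a log2 ratio of -0.75 (-1.19 to -0.33). The intervals of both lay below 0.

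The other 6 tested ligands had few reads, and their intervals crossed 0. The neural tube ligand wnt3 had 26 reads in GFP+ cells against 29 in GFP- cells (log2 ratio -0.27, -1.09 to 0.54). Its relative wnt3a had 9 reads in GFP+ cells against 8 in GFP- cells (log2 ratio 0.047, -1.49 to 1.63). The ligand genes wnt2, wnt10a and wnt10b had 12, 12 and 4 reads in GFP+ cells, against 13, 15 and 8 in GFP- cells. At this depth no difference was detectable for these 5 genes, and equal levels are not shown. The largest ratio of a ligand was that of wnt5b, a β-catenin-independent ligand needed for tail extension in zebrafish, with 14 reads in GFP+ cells against 7 in GFP- cells (log2 ratio 0.84, -0.52 to 2.44).

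Frizzled receptors have a cysteine-rich domain outside the cell, which holds the ligand, and cross the membrane as G protein-coupled receptors do. Of the 16 Frizzled gene models, 15 were tested, of which 6 were lower in GFP+ cells, 1 was higher and 8 were not called. Their median log2 ratio was -0.89, and together they had 2937 reads in GFP+ cells against 5436 in GFP- cells.

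The only family gene called higher in GFP+ cells was ENSDARG00000077111, which the tables describe as frizzled homolog 4-like and which is written fzd4-like here. Its model spans bases 44461834 to 44470329 of chromosome 15 in Zv9, forward strand. It had 55 reads in GFP+ cells, which covered 83.7% of the transcript, and 19 reads in GFP- cells, which covered 35.4%. Its level was 7.85 RPKM in GFP+ cells against 2.93 RPKM in GFP- cells, giving a log2 ratio of 1.40 (0.64 to 2.26) or 2.63-fold (1.56 to 4.77), with an adjusted p of 0.00033 by Fisher's exact test. In the mouse, Fzd4 is an endothelial receptor for Wnt7 and for Norrin in the retina and brain. The ratio of fzd4-like was between 1.49 and 1.74 under the 4 other scalings and 1.21 with 5 reads added, but with edgeR's exact test and the assumed variation its adjusted p was 0.628. Those scalings raise every log2 ratio, so they could not lower that of fzd4-like. The median of the vascular markers, 5.06 on the log2 scale, lay above the interval of fzd4-like. The part of vascular or blood RNA in the fzd4-like reads was not tested.

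At the opposite end stood fzd10, a receptor gene of the dorsal neural tube. It had 91 reads in GFP+ cells against 489 in GFP- cells, at 6.87 RPKM in GFP+ cells against 40.0 RPKM in GFP- cells. This gave a log2 ratio of -2.53 (-2.88 to -2.21) and an adjusted p of 2.02e-72 by Fisher's exact test. Only 2.54% of all tested genes had a lower ratio. Its span overlaps another gene in the tables.

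The Fzd8 genes, whose product is a receptor of the anterior neural plate, also differed. There were 123 reads of fzd8a in GFP+ cells against 334 in GFP- cells (log2 ratio -1.55, -1.86 to -1.25), and 18 reads of fzd8b in GFP+ cells against 55 in GFP- cells (log2 ratio -1.70, -2.58 to -0.93). Both copies were called lower.

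The most-read receptor was fzd7a, which acts with a Wnt11-type ligand in zebrafish gastrulation. It had 1236 reads in GFP+ cells against 2305 in GFP- cells, giving a log2 ratio of -1.01 (-1.11 to -0.91). The copy fzd7b had 379 reads in GFP+ cells against 687 in GFP- cells, a log2 ratio of -0.97 (-1.16 to -0.79). These values lie on either side of the threshold of -1, so that fzd7a was called lower and fzd7b was not, and their intervals overlap almost wholly. The axon guidance receptor gene fzd3a had 268 reads in GFP+ cells against 517 in GFP- cells (log2 ratio -1.06, -1.28 to -0.85), and fzd9 had 45 in GFP+ cells against 90 in GFP- cells (log2 ratio -1.11, -1.66 to -0.58). Both were called lower. The calls of fzd7a, fzd3a and fzd9 were lost with TMM scaling, with ratios of -0.90, -0.95 and -0.99. The transcript of fzd3a that met the rule held 12 of its reads in GFP+ cells against 14 in GFP- cells, a ratio of -0.33, so the call rests on its other transcript.

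The other receptor genes were not called. The reads of fzd2 were 376 in GFP+ cells against 575 in GFP- cells, giving a log2 ratio of -0.73 (-0.92 to -0.54) under the fold threshold. For fzd1 they were 19 in GFP+ cells against 33 in GFP- cells (log2 ratio -0.89, -1.81 to -0.053). The eye field receptor gene fzd5 had 81 reads in GFP+ cells against 89 in GFP- cells (log2 ratio -0.25, -0.70 to 0.20). For fzd3b the reads were 16 in GFP+ cells against 19 in GFP- cells (log2 ratio -0.35, -1.42 to 0.68). The sign of fzd5 changed when the libraries were scaled to β-actin reads.

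The tables hold 3 gene models whose best match was frizzled-6, a receptor known in the mouse for the planar polarity of hair and skin. They lie on chromosome 16 of Zv9, with 1076 bases between ENSDARG00000091242 and ENSDARG00000087719 on the forward strand and 85859 bases from there to ENSDARG00000042731 on the reverse strand. ENSDARG00000042731 (fzd6-I) had 51 reads in GFP+ cells against 38 in GFP- cells. ENSDARG00000087719 (fzd6-II) had 148 reads in GFP+ cells against 165 in GFP- cells, and the 192-base ENSDARG00000091242 (fzd6-III) had 30 in GFP+ cells against 19 in GFP- cells. Whether they are pieces of 1 gene cannot be told from the tables, and only uniquely mapped reads were counted, so their levels are uncertain. Summed, they had 229 reads in GFP+ cells against 222 in GFP- cells, giving a log2 ratio of -0.069 (-0.34 to 0.20).

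Shares within the class do not depend on how the libraries are scaled, but each share depends on the other genes of the class. In GFP+ cells fzd7a took 42.1% of the Frizzled reads (95% interval 40.3% to 43.9%), and in GFP- cells 42.4% (41.1% to 43.7%). The share of fzd10 was 3.10% in GFP+ cells (2.50% to 3.79%) and 9.0% in GFP- cells (8.25% to 9.79%). For fzd4-like it was 1.87% in GFP+ cells (1.41% to 2.43%) and 0.35% in GFP- cells (0.211% to 0.545%). The intervals of fzd7a for its share of the Frizzled reads overlapped, whereas fzd10 and fzd4-like had shares whose intervals did not overlap. Nor did those of fzd2, fzd5, fzd8a and each fzd6 model, so this was not particular to fzd10 and fzd4-like. For the other tested models the intervals overlapped.

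Of the secreted inhibitors, 9 of 12 genes were tested, of which 3 were lower in GFP+ cells, 0 were higher and 6 were not called. Their median log2 ratio was -1.71, which rests on few reads for 5 of the 9 genes and was -1.11 with 5 reads added. All inhibitor genes together had 335 reads in GFP+ cells against 836 in GFP- cells.

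The gene sfrp5, for a secreted Frizzled-related protein, had the strongest difference among the calls of the whole family. It had 49 reads in GFP+ cells against 331 in GFP- cells, at 5.58 RPKM in GFP+ cells against 40.8 RPKM in GFP- cells. This gave a log2 ratio of -2.86 (-3.33 to -2.43) and an adjusted p of 3.39e-56 by Fisher's exact test. Wnt inhibitory factor, wif1, had 79 reads in GFP+ cells against 240 in GFP- cells (log2 ratio -1.71, -2.10 to -1.34). For sfrp1a the reads were 68 in GFP+ cells against 129 in GFP- cells (log2 ratio -1.03, -1.48 to -0.60), near the threshold, and its call was lost with TMM scaling. All 3 were called lower.

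The gene sfrp2 differed from this pattern. Its reads were 114 in GFP+ cells against 84 in GFP- cells, giving a log2 ratio of 0.32 (-0.092 to 0.75), and it was not called. It accounted for 34.0% of the inhibitor reads in GFP+ cells (29.0% to 39.4%) and 10% in GFP- cells (8.09% to 12.3%). The share of sfrp5 was 14.6% in GFP+ cells (11.0% to 18.9%) and 39.6% in GFP- cells (36.3% to 43.0%). Thus sfrp2 had the highest RPKM of the inhibitors in GFP+ cells, at 21.2 against 16.9 in GFP- cells, whereas sfrp5 had the highest in GFP- cells.

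**Figure D2:**
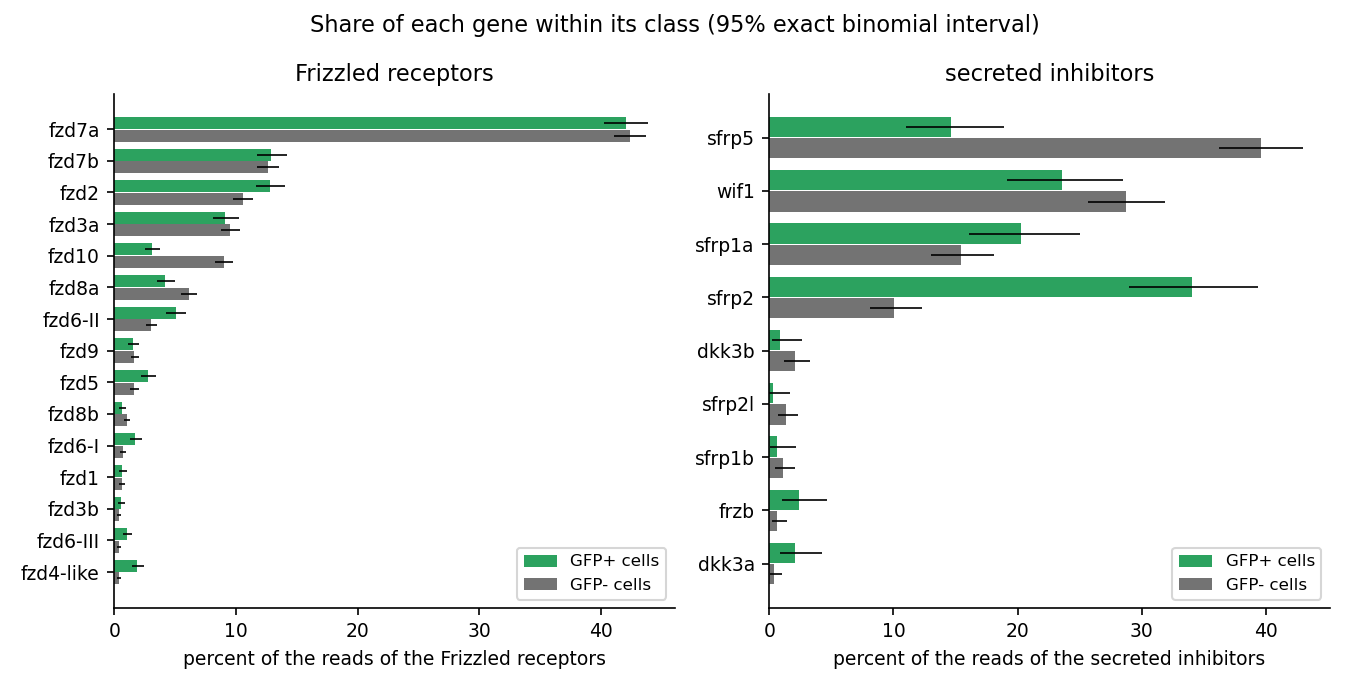
Share of the reads of the Frizzled class and of the inhibitor class taken by each tested gene, in percent, with 95% exact binomial intervals, for GFP+ cells (green, upper bar) and GFP- cells (gray, lower bar). The bars of fzd7a are nearly equal at 42.1% for GFP+ cells and 42.4% for GFP- cells, and those of sfrp2 and sfrp5 change places.

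The other tested inhibitors had 20 reads or fewer over both libraries. Low counts in GFP+ cells were seen for sfrp2l, with 1 read there and 11 in GFP- cells (log2 ratio -3.05, -9.0 to -0.79), and for sfrp1b, with 2 in GFP+ cells against 9 in GFP- cells (log2 ratio -2.04, -5.53 to -0.011). The Dickkopf genes of the Dkk3 type, a divergent branch of that family, gave opposite signs. There were 3 reads of dkk3b in GFP+ cells against 17 in GFP- cells (log2 ratio -2.44, -5.03 to -0.83), but 7 reads of dkk3a in GFP+ cells against 3 in GFP- cells (log2 ratio 0.99, -1.02 to 3.69). The frzb gene had 8 reads in GFP+ cells against 5 in GFP- cells. None of these 5 genes was called.

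**Figure D3:**
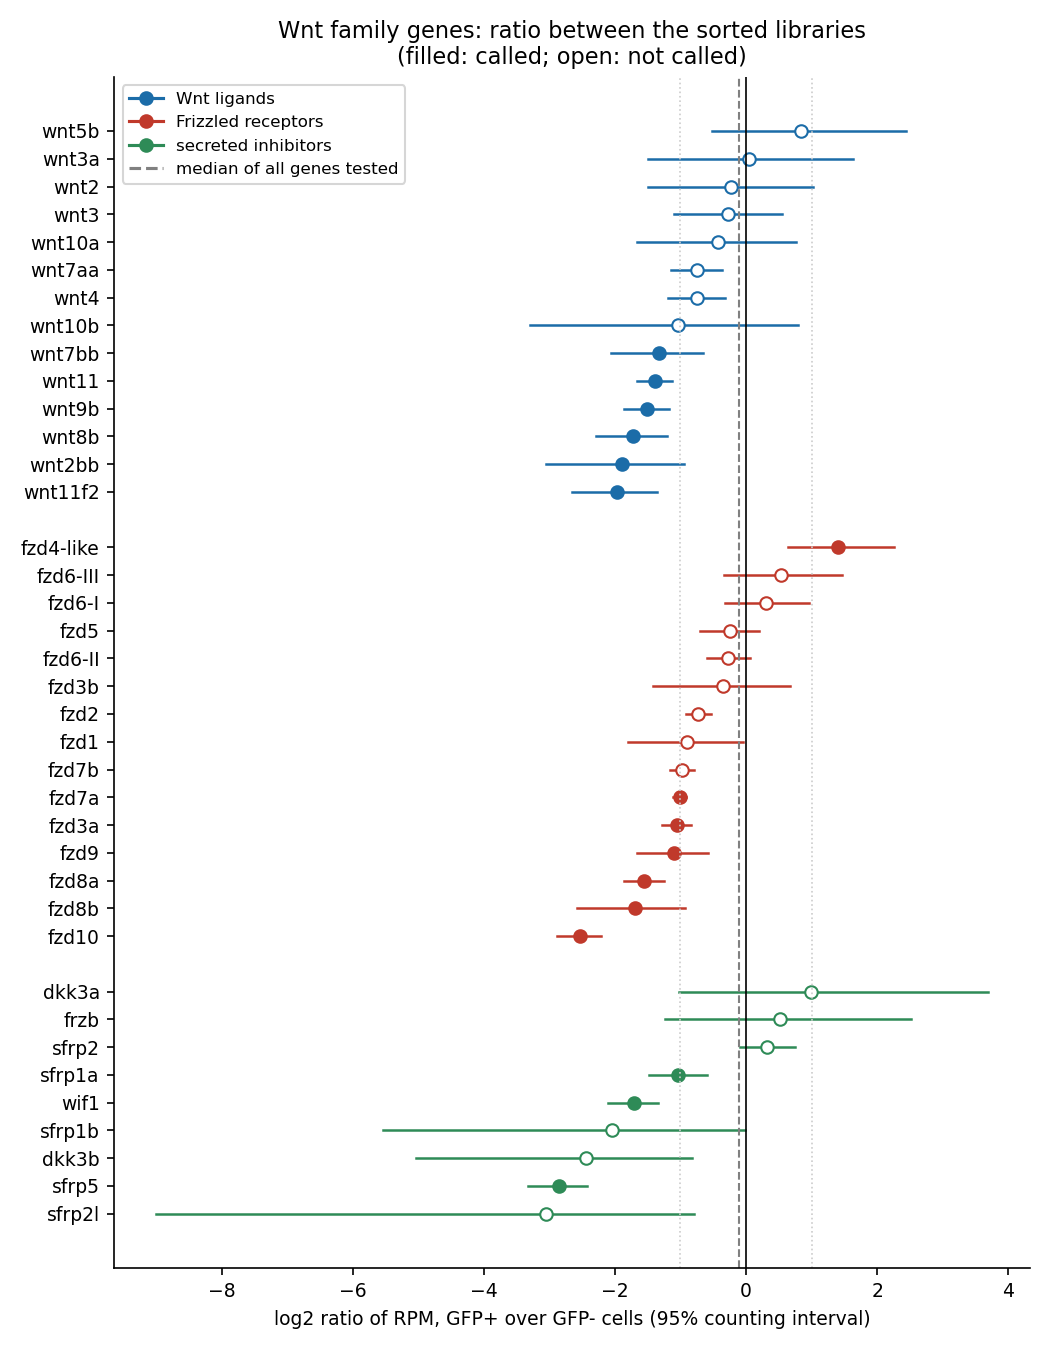
Log2 ratio of RPM, GFP+ over GFP- cells, of the 38 tested genes with 95% exact counting intervals, colored by class and filled where called. Of the filled points, 15 lie below -1 and 1, fzd4-like at 1.40, lies above 1, and the dashed line marks the median of all tested genes at -0.11.

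The 12 family genes under the minimum of 10 reads had at most 7 reads over both libraries and were given no ratio. Just inside the minimum was dkk3a with 10 reads, and just outside was wnt2ba with 1 read in GFP+ cells against 6 in GFP- cells. Wnt1, a midbrain-hindbrain ligand, had 1 read in GFP+ cells against 4 in GFP- cells. The β-catenin antagonists dkk1b and dkk2 had 1 read in GFP+ cells each, against 1 and 2 in GFP- cells. The second Fzd9 gene had 1 reads in GFP+ cells against 2 in GFP- cells, and a gene similar to frizzled-related protein 2 had 2 in GFP+ cells against 4 in GFP- cells. The genes wnt7ab, a wnt6-like gene, a wnt8-like gene and ccn6 had 0 reads in GFP+ cells, which allows up to 0.675 RPM there, and 3, 1, 3 and 1 reads in GFP- cells. The remaining WISP genes were ccn4a, with 1 read in each library, and wisp1b, with 4 in GFP+ cells against 1 in GFP- cells.

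In position, the family genes lay scattered over the genome, with few neighbors. The gene wnt10b lay 4581 bases from wnt1 on chromosome 23 of Zv9, with the genes on opposite strands, and a wnt6-like gene lay 38543 bases from wnt10a on chromosome 9. All 4 had 27 or fewer reads over both libraries. In 8 of the 16 Frizzled models, but in no ligand or inhibitor gene, the genomic span equaled the length of the transcript, as for a gene model without introns. The models of fzd10, fzd8a, fzd8b, fzd7a, fzd2, fzd5 and both fzd9 genes were of this kind, and the model of fzd4-like was not.

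Genes that act around the family were taken from lists of the secretion, co-receptor, R-spondin, β-catenin, TCF, target and planar polarity parts of the pathway. Of 111 genes written, 83 were found by symbol with a read and 76 were tested, of which 16 (21.1%) were lower in GFP+ cells and 4 (5.26%) were higher, with a median log2 ratio of -0.35. Among all tested genes 10.8% were lower and 9.99% higher. Scaled to β-actin reads, 9 of the 76 pathway genes were lower and 8 higher, whereas 6.45% of all tested genes were lower and 15.4% higher. At the assumed variation in edgeR's test, 4 pathway genes were called lower and 0 higher, beside 0.616% and 2.24% of all tested genes.

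Wnt secretion was represented by 8 tested genes, with a median of -0.77. The gene wls, whose product carries Wnt proteins to the cell surface, had 63 reads in GFP+ cells against 186 in GFP- cells (log2 ratio -1.67, -2.11 to -1.26) and was called lower. The most-read gene of the list, the cargo receptor gene tmed2, had 550 reads in GFP+ cells against 837 in GFP- cells (log2 ratio -0.72, -0.88 to -0.56) and was not called.

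Of the 9 tested co-receptor and cofactor genes, 0 were lower and the median was -0.30. Only 1 (11.1%) was higher, near the 9.99% of all tested genes. That gene was adgra2, which encodes Gpr124, a Wnt7 cofactor of brain endothelial cells in zebrafish and mouse. It had 40 reads in GFP+ cells against 5 in GFP- cells, giving a log2 ratio of 2.77 (1.55 to 4.59). Another tested gene of this list, reck, had 107 reads in GFP+ cells against 95 in GFP- cells (log2 ratio 0.057, -0.35 to 0.47) and was not called. The co-receptor gene lrp5 had 683 reads in GFP+ cells against 752 in GFP- cells (log2 ratio -0.25, -0.40 to -0.10). For kremen1, a receptor for Dickkopf proteins, the reads were 39 in GFP+ cells against 12 in GFP- cells (log2 ratio 1.55, 0.62 to 2.66), which passed the fold threshold but not the test. It was called higher under the 4 other scalings, but each of them raises every log2 ratio, by 0.098 to 0.35.

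R-spondins are secreted proteins that raise the number of Frizzled receptors at the cell surface. Of 5 tested genes of this axis, rspo2 and rspo3 were lower, with 27 and 32 reads in GFP+ cells against 72 and 80 in GFP- cells, and the median was -1.39. The R-spondin receptor gene lgr4 had 272 reads in GFP+ cells against 459 in GFP- cells (log2 ratio -0.87, -1.09 to -0.65) and was not called.

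Of 21 tested genes of the β-catenin relay, 3 (14.3%) were lower and 1 (4.76%) was higher, against 10.8% and 9.99% of all tested genes. The median of the relay genes was -0.10, near that of all tested genes. The β-catenin gene ctnnb1 itself had 2861 reads in GFP+ cells against 3826 in GFP- cells (log2 ratio -0.53, -0.60 to -0.46) and was not called. The genes called lower were axin2, gsk3ab, for a kinase that marks β-catenin for destruction, and ctnnbip1, for an inhibitor of its binding to TCF, with log2 ratios of -1.19, -1.22 and -1.01, and apc2 was called higher at 1.61. With TMM scaling the call of ctnnbip1 was lost at -0.90, and with β-actin scaling all 3 lower calls were lost, at -0.84 for axin2, -0.87 for gsk3ab and -0.66 for ctnnbip1. For axin2, a feedback inhibitor that Wnt signaling induces in many tissues, the reads were 166 in GFP+ cells against 350 in GFP- cells. Of 11 tested TCF genes and cofactors, the cofactor genes bcl9 and pygo2 were lower (log2 ratio -1.11 and -1.23) and none was higher, with a median of -0.63. These calls were 18.2% of the tested genes of the list, against 10.8% of all tested genes. The call of bcl9 was lost with TMM scaling at -0.99, and with β-actin scaling both calls were lost, at -0.76 for bcl9 and -0.88 for pygo2. The corepressor gene ctbp1, the most read of these, had a log2 ratio of -0.82 (-0.93 to -0.71).

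The list of Wnt targets had 12 tested genes, of which 7 (58.3%) were lower and 1 (8.33%) was higher, with a median of -1.13. Among all tested genes 10.8% were lower and 9.99% higher. The lists share genes and are not independent. Of the targets, axin2 and nkd1 are also in the β-catenin relay list, lef1 in the TCF list and notum1a in the secretion list. The target tbxta is also among the epidermis and notochord markers. The lowest ratios of the list were those of genes known from the tailbud and paraxial mesoderm. For sp5l, a Wnt target in the tailbud, there were 6 reads in GFP+ cells against 124 in GFP- cells (log2 ratio -4.37, -5.96 to -3.32). The tailbud genes cdx4 and tbxta gave -4.20 and -3.79, and tbx6 gave -3.73. The genes axin2, myca and mycb were also lower, but the call of mycb was lost with TMM scaling at -0.96, and with β-actin scaling neither axin2 nor mycb was called. The gene called higher was sox17, a transcription factor gene also expressed in arterial endothelium, with 19 reads in GFP+ cells against 1 in GFP- cells (log2 ratio 3.59, 1.48 to 9.51). The targets lef1, nkd1 and notum1a were not called, with log2 ratios of 0.62, -0.10 and -0.73 and intervals that crossed 0. Of these, lef1 had only 7 reads in GFP+ cells against 4 in GFP- cells, and nkd1 had 209 against 207. The cyclin gene ccnd1, with most reads on the list, had a log2 ratio of -0.25 (-0.34 to -0.16) and was not called either.

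Planar polarity genes had a median of 0.19 over 14 tested genes, of which 1 (7.14%) was higher and 2 (14.3%) were lower. Among all tested genes these shares were 9.99% and 10.8%. With β-actin scaling 3 were higher and 1 was lower, beside 15.4% and 6.45% of all tested genes. The medians of the other 6 lists were below 0 with the library totals, but that of the β-catenin relay was 0.012 with TMM scaling and 0.25 with β-actin scaling, and that of the co-receptors was 0.052 with β-actin scaling. Each scaling shifts every gene alike, and the median of all tested genes moved from -0.11 to -0.0014 with TMM and to 0.24 with β-actin. The core polarity gene vangl1 had 49 reads in GFP+ cells against 16 in GFP- cells (log2 ratio 1.47, 0.66 to 2.42) and was called higher. Its relative vangl2 had 278 reads in GFP+ cells against 141 in GFP- cells (log2 ratio 0.86, 0.57 to 1.17) and did not pass the fold threshold, but was called higher with β-actin scaling at 1.21. Just under the threshold was invs, with 150 reads in GFP+ cells against 70 in GFP- cells (log2 ratio 0.98, 0.57 to 1.42). The gene invs was called higher under the 4 other scalings, all of which raise every log2 ratio. The small GTPase gene rhoaa, the most read of the list, had a log2 ratio of -0.22 (-0.35 to -0.088). The genes prickle1b and celsr1b were called lower, with log2 ratios of -2.37 and -1.28, and the call of celsr1b was lost with β-actin scaling at -0.93. No test compared this list with the others.

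**Figure D4:**
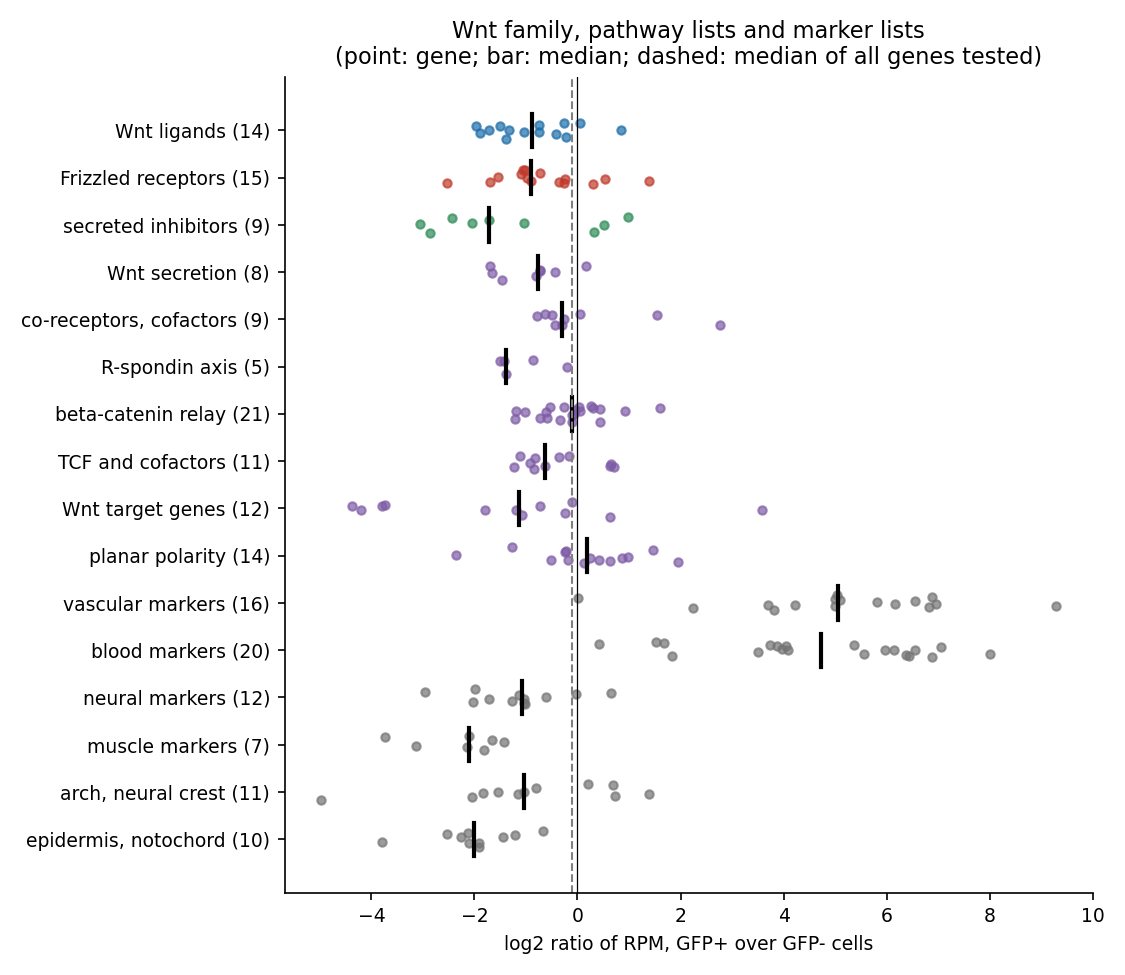
Log2 ratio of RPM, GFP+ over GFP- cells, of the tested genes of each class of the Wnt family, of the pathway lists and of the marker lists, with the number of genes in parentheses, a bar at each median and a dashed line at the median of all tested genes (-0.11). The ligand and Frizzled medians of -0.89 lie near that of the neural markers at -1.08, above that of the muscle markers at -2.11 and far below that of the vascular markers at 5.06. The inhibitor median of -1.71 lies between those of the neural and muscle markers.

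Beside these values stand those of the marker lists. The neural markers had a median log2 ratio of -1.08 and the arch and neural crest markers -1.05, close to the -0.99 of the Wnt family. That family value pools ligands and Frizzled models, at -0.89 each, with inhibitors at -1.71. In the arch and neural crest list 4 of the 11 tested genes had a ratio above 0 and 7 below. The muscle markers had -2.11 and the epidermis and notochord markers -2.01. The part of RNA from other cell types in the GFP+ reads of the family was not tested.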

How the data were processed

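RNA from GFP+ and GFP- cells was prepared with the Illumina TruSeq RNA kit, per the labels, and sequenced as 1 library per group, so p-values measure counting error only. The authors deposited, per transcript of Zv9 with a read, the count of uniquely mapped reads, the length, the percent of the length covered and the RPKM. The aligner and the counter are not given in the sources used here. Recomputing the deposited RPKM from the counts gave relative differences of at most 5.05e-15. Whether the counting used strand is not given, so reads of overlapping genes cannot be told apart, and 5 family genes overlap another gene.

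Reads were summed by Ensembl gene ID. Symbols came from a RefSeq table on GRCz12tu by protein accession (9281 of 22017 genes) and from a table of gene names (8695 more). No coordinates were taken from it. Family genes were named by these tables or by their deposited protein name.

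Fisher's exact test used the library totals with Benjamini-Hochberg adjustment over all 15252 genes with at least 10 reads. A floor of 3 reads corresponds to 0.675 RPM in the GFP+ library and 0.731 RPM in the GFP- library. In simulated data for this comparison, run on all 22017 genes, 193 of 200 genes given a 4-fold change (each with at least 50 reads) were recovered, whereas 0 of 15050 unchanged genes were called. The simulated libraries varied by counting error only, which is what the test assumes. They therefore cannot show how many calls variation between cells or preparations would give. Full values were to be given for family genes that were called, that had the largest or smallest ratio or the highest RPKM in their class, or that lay next to the minimum of reads, and of each pathway list the called genes and the most-read gene were to be named. Values of the other family genes and of kremen1, reck, lef1, nkd1, notum1a, vangl2 and invs were added after their values were seen. The members and lists were chosen with earlier results of these data known.

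Alternatives were the fold threshold alone, edgeR's exact test, minimums of 20, 50 or no reads, 5 reads added, TMM, DESeq2 size factors, totals without hemoglobin, β-actin scaling, the most-read transcript and only the transcripts that met the rule. The tests ran in SciPy 1.17.1 with pandas 2.3.3 under Python 3.11.15, and edgeR 4.0.16 and DESeq2 1.42.0 ran under R 4.3.3.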

Additional observations from a re-analysis of the deposited data

How the results depend on the processing

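No paired analysis was possible since either group consists of 1 library, so none could be left out. With edgeR's exact test, 0 family genes were higher and 0 lower (against 1 and 15), and 0 pathway genes were higher and 4 lower (against 4 and 16). Of all tested genes, 2.24% were higher and 0.616% lower in that setting. That test assumes a variation that these data cannot give. The size factors of DESeq2 were 1.0 for both libraries and shifted every log2 ratio by 0.11, as TMM did. With either, 11 family genes were lower and 1 higher. Hemoglobin took 6.6% of the GFP+ reads and 0.057% of the GFP- reads, and without it 12 family genes were lower and 1 higher. In these 3 settings 9.1% to 9.54% of all tested genes were lower and 11.2% to 11.4% higher. Scaling to β-actin reads shifted every log2 ratio by 0.35, and gave 9 family genes lower, 8 pathway genes higher and 9 lower, and a median of -0.64 for the family. Over all tested genes it gave 2356 higher and 984 lower, against 1524 and 1651, and a median of 0.24, against -0.11. With it, fzd5 (0.10), wnt3 (0.081), wnt2 (0.12) and fzd6-II (0.079) changed sign, and so did wnt3a with 5 reads added (-0.0065). None of these 5 was called. The median of the inhibitors was -1.11 with 5 reads added and -0.997 with no minimum of reads, which adds 3 genes of few reads. For single genes, 242 of 266 values kept their sign and call, 19 lost a call and 5 changed sign. These values leave out edgeR's test, in which no family gene was called. The 22 of 38 tested genes without a call had none to lose, so all 19 losses fell on called genes. Of the tested genes only fzd3a had more than 1 transcript, so the transcript settings left the reads of all others unchanged. The call of fzd4-like held in all 7 of its alternatives, but most of them could not change it. The 4 scalings raise every log2 ratio, and fzd4-like has 1 transcript, so the transcript settings kept its reads. Only the addition of 5 reads could weaken the call, and its ratio was then 1.21. With edgeR's test fzd4-like was not called. Counting only the fzd3a transcript that met the rule left 12 reads in GFP+ cells against 14 in GFP- cells and no call. No family gene with fewer than 50 reads was called. Beyond the construction of each setting, the cause of these changes was not tested.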
